A study of Mus musculus with 10 samples.

Results

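The probes described here are those with more signal when Snai1 was added to reprogramming fibroblasts than in both arrays that served as its controls. They were chosen from the authors' table of array intensities, in which empty values and values under 25 were set to 25. A probe was taken if its intensity with Snai1 was at least 2 times that of each control. Of 23473 probes on the chip, 131 met this rule, which is 0.558%, or 1.68% of the 7813 probes that reached 50 on the Snai1 array and so could have met it. The choice rests on 1 Snai1 array, so the height of these probes with Snai1 is how they were found and has no replicate check. The files used here do not pair probes with genes, and each probe is given by its ID.

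All samples are mouse, with 1 array per sample and 10 arrays in all. MEF are untreated mouse embryonic fibroblasts, the negative control of the study, and heart is untreated heart tissue, its positive control. The other 8 samples are induced cardiomyocyte-like cells (iCM) made from MEF with pMx retrovirus and sorted for GFP under the cardiac a-MHC promoter, so every iCM array reports cells in which that reporter was on. All iCM received GMT (the cardiac transcription factors Gata4, Mef2c and Tbx5). They were taken at day 3, 7 or 18 with GMT alone, at the same days with GMT and a synthetic miR-133a mimic (GMT/miR-133), once more at day 7 with GMT/miR-133, and at day 7 with GMT, miR-133 and Snai1. The day 7 arrays titled GMT/miR-133 are called control 1 and control 2. Their label conflicts in 1 place, since the description of control 2 names GMT alone while its title and treatment name miR-133. The other 7 arrays took no part in the choice.

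Snai1 is a zinc-finger transcription factor that represses epithelial genes such as the one for E-cadherin and drives epithelial-mesenchymal transition. It is also active in mesenchymal cells such as fibroblasts, and it has been reported as a target of miR-133, a microRNA abundant in muscle. Reprogramming with GMT is known to turn cardiac genes on and fibroblast genes down. Adding Snai1 to GMT/miR-133 asks what changes when the repressor is supplied again. Which probe measures Snai1 itself is not known here, so its level could not be checked against the label.

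The authors' columns for GMT and GMT/miR-133 at day 3 match the scanner files deposited for day 7, and the reverse, with 4 columns affected. Days are given below as in the value table that the rule uses, so control 1 is the array whose scanner file was deposited under day 3. By their file headers the arrays fall in 3 scan sessions. MEF, heart, the day 18 pair, GMT at day 7 and control 1 were scanned in the first, the day 3 pair in the second, and control 2 and the Snai1 array in the third. Each column has a median near 25, so the floor lies near the middle of the chip, and between 10141 and 10840 probes lay above it on each array. The Snai1 array had the fewest probes above it and the most empty values, 3189 against 1791 to 2769 on the others. On that array a value of 25 corresponds to a spot intensity of 92.0, compared with 43.6 to 75.1 on the others.

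The 131 probes were of modest intensity and spanned the chip. On the Snai1 array they ranged from 50.1 to 4488 with a median of 126. Of these, 54 lay under 100, 66 between 100 and 1000, and 11 at 1000 or above. Members were found in all 24 blocks of the chip, 1 to 11 per block with a mean of 5.46. IDs that start with M2 made up 55% of the members, compared with 34.2% of the chip and 46.2% of the 7813 probes that could have met the rule. IDs that start with M4 made up 16%, compared with 36.8% and 26.5%, and those that start with M3 made up 29%, compared with 29% and 27.3%.

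Members were most intense in MEF and lowest on the arrays that the rule used as controls. Their median intensity was 139.8 in MEF and 74.4 in heart. With GMT alone it was 79.6 at day 3, 54.2 at day 7 and 51.5 at day 18. With GMT/miR-133 it was 68.4 at day 3 and 43.9 at day 18, below GMT at both days. On control 1 and control 2 it was 39.1 and 39.2. The low values of the controls and the high value with Snai1 follow from the rule. The other 7 arrays took no part in it. The iCM arrays among them share GMT, and some also miR-133, with the controls, so their order is not free of the choice. The Snai1 median lay between those of MEF and of GMT at day 3.

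**Figure D1:**
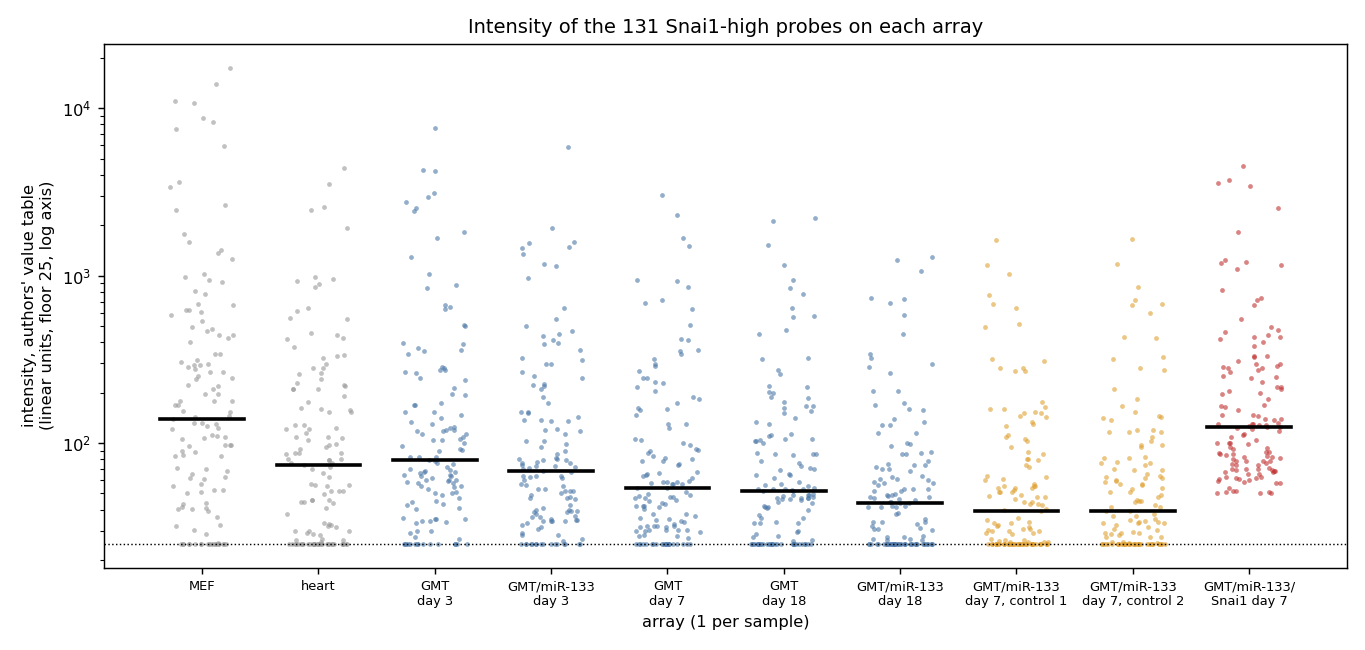
Intensity of the 131 Snai1-high probes (points, log axis, linear units of the authors' table with a floor of 25, dotted line) on each of the 10 arrays, with the median as a black bar. Grey marks MEF and heart, blue the 5 iCM arrays outside the rule, yellow the controls and red the Snai1 array. Medians run from 139.8 in MEF to 39.1 on control 1, and the Snai1 array stands at 126.

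The folds that defined the members were mostly small. The smaller of both folds had a median of 2.45, and it was under 3 for 101 members, 3 to 4 for 19 and 4 or more for 11. Either control was at the floor for 48 members, and both were for 27, so for these the fold against that control is a lower bound. Just inside the threshold stood M200000832, at 50.1 with Snai1 and at the floor on both controls, and M200004440, at 138 against 55.5 and 68.6. Just outside stood M300007005, at 116 against 57.8 and 37.7, and M400011570, at 93.5 against 40.7 and 46.9. Against control 1 alone 328 probes reached 2-fold (1.4%), and against control 2 alone 209 did (0.89%), so the 131 are 39.9% of the first list and 62.7% of the second. The controls themselves differed by at least 2-fold at 345 probes in one direction (1.47%) and 353 in the other (1.5%). Among the members 3 were at least 2-fold higher on control 2 and 4 on control 1. With scanner intensities corrected on the blank spots and quantile-normalized, 92 probes met the rule, and 70 of them were members. With the scanner files taken under the day they were deposited for, 61 probes met it, and 38 of them were members.

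Among the members with the largest folds, M200001390 led. It was at 245 with Snai1 and at the floor on both controls, at least 9.80-fold higher. It was also at the floor with GMT at day 7 and in both arms at day 18, while MEF was at 83.4, heart at 95.2, and the day 3 arrays at 66.3 with GMT and 60.5 with GMT/miR-133. The Snai1 array was thus the highest of all 10 arrays for this probe, 2.94-fold above MEF. By Pearson's correlation of log2 values over the 7 arrays outside the rule, the probes most like it were M300011001 (r = 0.992), M200014314 (r = 0.990) and M400001327 (r = 0.985). M300011001 is itself a member, at 117 with Snai1, at the floor on both controls and at 179 in MEF. M200014314 and M400001327 are not, at 128 and 27.8 with Snai1 against 168 and 29.0 on control 2, and both share with the leading probe only the 7 arrays on which they were compared.

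M200006244, M200002538 and M300000002 were instead far higher in MEF than on any iCM array. M200006244 was at 988 in MEF and 49.7 in heart, and at 169, 57.8 and 70.9 with GMT at days 3, 7 and 18. With miR-133 it was at 63.1 and 42.1 at days 3 and 18, and at 26.1 and 25 on the controls. With Snai1 it was at 218, above every other iCM array and 4.54-fold below MEF. M200002538 was at 911 in MEF and 210.3 in heart, at 172 with GMT at day 3, 30.2 at day 7 and the floor at day 18. It was at the floor on both controls and with GMT/miR-133 at day 18. It was at 80.6 with GMT/miR-133 at day 3 and at 166 with Snai1, about the level of GMT at day 3. M300000002 was at 7480 in MEF and 2466 in heart, then at 874, 246 and 216 with GMT at days 3, 7 and 18 and at 448 and 86.5 with GMT/miR-133 at days 3 and 18. It was at 74.0 and 45.9 on the controls and at 429 with Snai1, which is 17.4-fold below MEF and below GMT at day 3.

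The other leading members had other profiles. M300013932 was higher in heart than in MEF, 986 against 468, was at 41.7 to 152 on the iCM arrays outside the rule, and reached 251 with Snai1. M200006283 was at 886 in heart, 110.0 in MEF and 123 with Snai1, and at the floor in both arms at day 3. M400011429 was at 253 in MEF and at the floor in heart. It stayed between 37.9 and 59.0 on all 7 iCM arrays without Snai1 and reached 289 with it, a level within 2-fold of MEF. M300003197 was similarly flat, between 32.2 and 68.4 on those 7 arrays, and reached 210.1 with Snai1 against 70.6 in MEF. M200004374 was at the floor in MEF and heart, at 41.0 and 53.1 at day 3, and at 130.2 with Snai1.

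**Figure D2:**
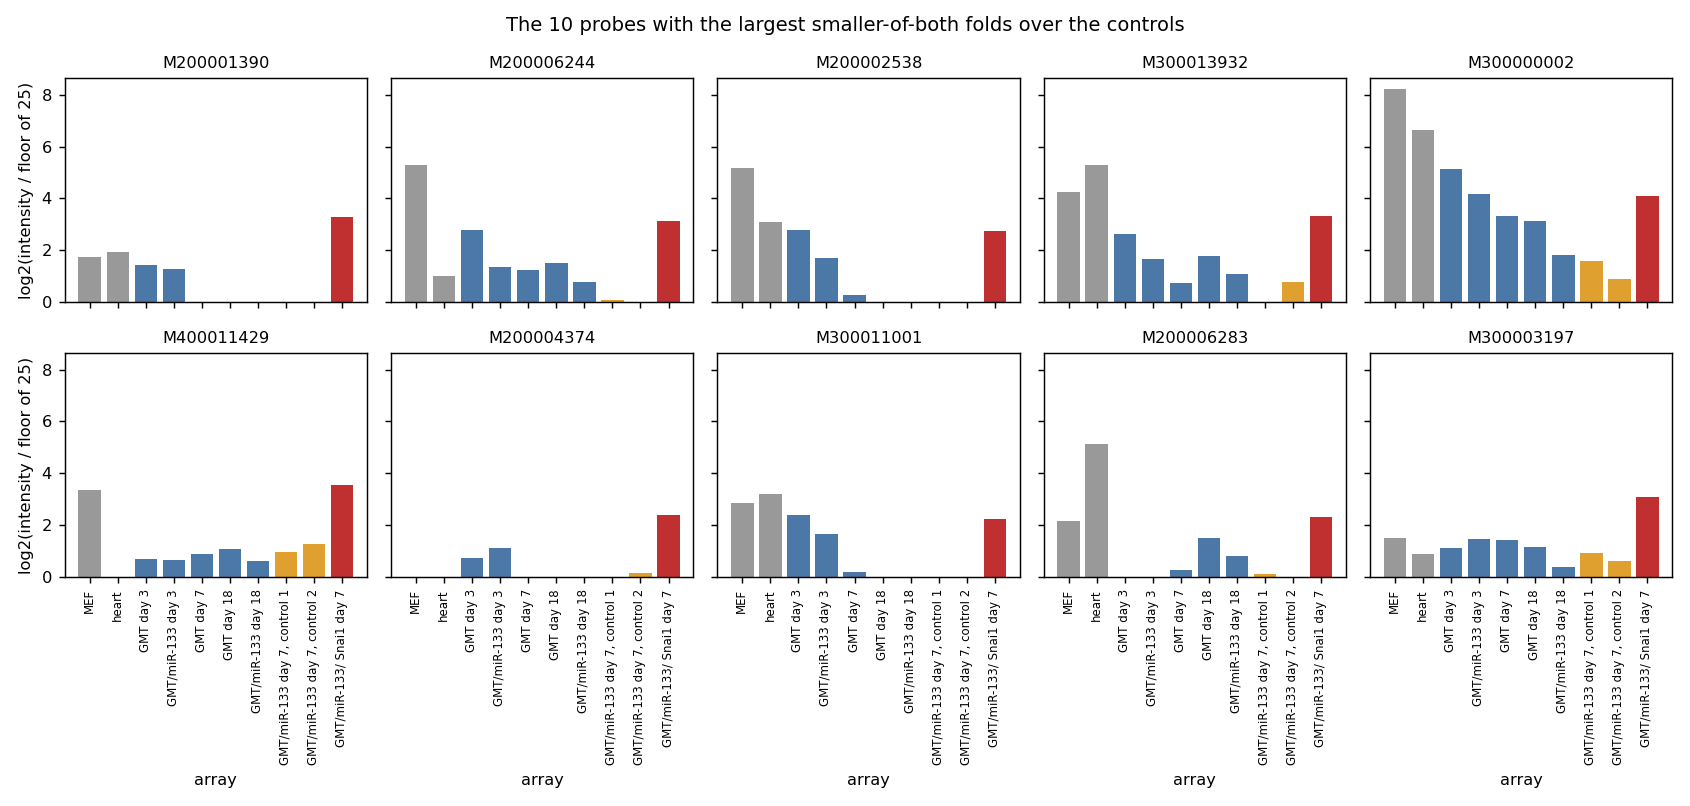
The 10 members with the largest smaller-of-both folds, as log2 of intensity over the floor of 25 (bars start at 0, the floor) on each of the 10 arrays. The Snai1 bar (red) stands above both control bars (yellow) by the rule. M200006244, M200002538 and M300000002 are highest in MEF, while M200001390, M200004374, M300003197 and M400011429 are highest with Snai1.

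The comparison of MEF with heart, which used no array of the rule, asked on which side of the conversion these probes lie. Of the 131 members, 54 (41.2%) were at least 2-fold higher in MEF than in heart, compared with 8.98% of all probes. As 48.5% of the chip is at the floor in both, compared with 11 members (8.4%) and 1.24% of the probes that reached 50 on the Snai1 array, the nearer comparison is with the latter, of which 20.4% were at least 2-fold higher in MEF. At 4-fold the count was 37 members (28.2%), compared with 2.44% of all probes and 4.89% of those at 50 or more. In the other direction 11 members (8.4%) were at least 2-fold higher in heart, compared with 5.49% of all probes and 9.09% of those at 50 or more. This is near the background. At 4-fold it was 4 members (3.05%), compared with 2.13% and 3.3%. Another 55 members lay within 2-fold of each other in MEF and heart with signal in 1 or both. Each side is 1 array, so the counts carry no test, and heart tissue holds several cell types. The choice is not independent of this comparison, since members were chosen to be low on controls made from MEF. That may favour probes high in MEF, and the background of probes at 50 or more does not correct for it.

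**Figure D3:**
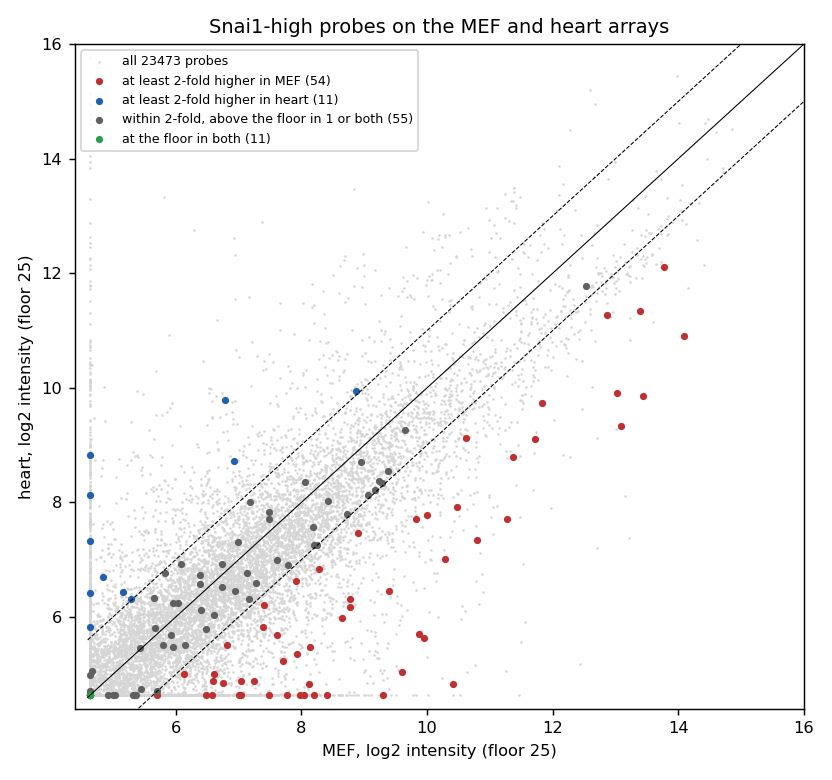
Log2 intensity in MEF (horizontal) and heart (vertical), floor 25, for all probes (grey) and the 131 Snai1-high probes, coloured by their difference between these arrays. The solid line marks equal levels and the dashed lines 2-fold. Of the members, 54 lie below the lower dashed line and 11 above the upper one.

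The most MEF-high member was M400000752, at 1368 in MEF and 28.6 in heart, 47.8-fold apart. On iCM arrays outside the rule it lay between 35.9 and 124, with Snai1 at 126, a level 10.8-fold below MEF. M300005873 and M400005522 were at 627 and 935 in MEF and at 50.5 and 74.3 with Snai1, more than 10-fold lower. M200001876 lay closer to MEF, at 779 in MEF, 205 to 339 on the iCM arrays outside the rule and 329 with Snai1. The member farthest below MEF with Snai1 was M200001169, at 8705 in MEF and 93.4 with Snai1, 93.2-fold lower, though at the floor on both controls.

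As a group, the 54 MEF-high members had a median of 369.8 in MEF and 51.8 in heart. With GMT the median was 118 at day 3, 66.7 at day 7 and 71.7 at day 18, and with GMT/miR-133 73.3 at day 3 and 45.9 at day 18. It was 43.1 and 38.5 on the controls and 127 with Snai1. The Snai1 reading of these members was at least 2-fold below MEF for 28, within 2-fold for 25 and at least 2-fold above for 1. This group was picked for a high MEF value, so part of its gap between MEF and Snai1 follows from how it was formed.

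Over all members, 33 were at least 2-fold lower with Snai1 than in MEF (25.2%), compared with 4.88% of all probes and 5.32% of those at 50 or more on the Snai1 array. Another 36 were at least 2-fold higher with Snai1 than in MEF (27.5%), compared with 3.34% and 10%. The other 62 were within 2-fold. The Snai1 array was chosen to be high, so the second count leans on the rule. The first goes against that part of the rule only. Members were also chosen to be low on the controls, which are iCM made from MEF. That may favour probes that are lower in iCM than in MEF, so nothing is read from the first count. Ranked by single arrays, Snai1 exceeded MEF at 61 members and GMT at day 3 at 98. These counts lean on the rule as well and are given without a background share, so nothing is read from them.

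Against MEF, the 5 iCM arrays outside the rule held many of these probes low. They were at least 2-fold below MEF on all 5 for 45 members (34.4%), compared with 2.42% of all probes and 2.28% of those at 50 or more on the Snai1 array. Of those 45 members, 36 were MEF-high. A high value on the same MEF array favours both sets, and their overlap over all probes is not given. Nothing is read from this overlap. On all 5 arrays 3 members were at least 2-fold above MEF (2.29%), compared with 1.89% of all probes and 5.04% of those at 50 or more. A stepwise order, with MEF above GMT at day 3, day 3 above day 7, and day 7 above day 18, was seen for 40 members (30.5%), compared with 2.79% of all probes and 5.76% of those at 50 or more. This order takes days 3 and 7 as in the value table, whose columns match scanner files of the other day. The members were chosen to be low on the controls, which are iCM arrays too, so these shares partly follow from the choice. The background of probes at 50 or more on the Snai1 array does not correct for this. The 5 arrays share 1 MEF array and differ in arm and day, so they are no replicates of one group.

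The 3 members above MEF on all 5 iCM arrays, named after their values were seen, formed a small set of their own. M200002530 was at the floor in MEF and at 281 in heart. It was at 1292, 928 and 1156 with GMT at days 3, 7 and 18 and at 551 and 728 with GMT/miR-133 at days 3 and 18. It was at 638 and 1166 on the controls and at 3746 with Snai1, the highest reading of all 10 arrays and at least 149.8-fold above MEF. M400002638 was at the floor in MEF and at 25.5 in heart, and at 1243 with Snai1. It was lower at day 18, at 167 with GMT and 159.6 with GMT/miR-133, than at day 3, at 666 and 438. M200002108 was at 41.1 in MEF, 197 to 324 on the 5 iCM arrays and 712 with Snai1.

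The heart-high members were few and unlike each other. M200007693 was at 456 in heart and at the floor in MEF, at day 3 in both arms and with GMT at day 7. It was at 64.2 and 127 at day 18, at 26.4 on control 1 and 119 on control 2, and at 273 with Snai1, so its controls differed more than 4-fold. M200001161 was at 160.5 in heart and at the floor in MEF, but at 632 with GMT at day 3 and 549 with Snai1, above heart on both. M200004761 was at 104 in heart, 28.6 in MEF and 82.7 with Snai1. The median of the 11 heart-high members was 164 with Snai1 and 160.5 in heart, but single members went both ways. With Snai1, 4 were at least 2-fold above heart, 3 at least 2-fold below and 4 within 2-fold. The rule chose these members to be high with Snai1, and the group was picked for a high heart value. The nearness of the medians thus partly follows from the choice.

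The Snai1 array was at least 2-fold above each of the 7 other iCM arrays for 27 members (20.6%), compared with 0.115% of all probes, a set that can hold no other probe because the rule is part of it. Of these, M200015162, M300013670, M300021046 and M400003083, named after their values were seen, were at the floor on all 7 arrays outside the rule. Their Snai1 readings were 60.7, 67.6, 87.1 and 67.8, all below 100. On all 7 arrays 45.1% of the chip was at the floor, compared with 3.05% of the members. At the bright end, 11 members reached 1000 with Snai1, and the examples here were picked after their values were seen. M400011145 was the brightest at 4488, against 2472 in MEF and 2969 with GMT at day 3. M300004979 was at 3557 with Snai1, 8282 in MEF and 7568 with GMT at day 3. Its controls were unequal, at 1639 and 680.

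**Figure D4:**
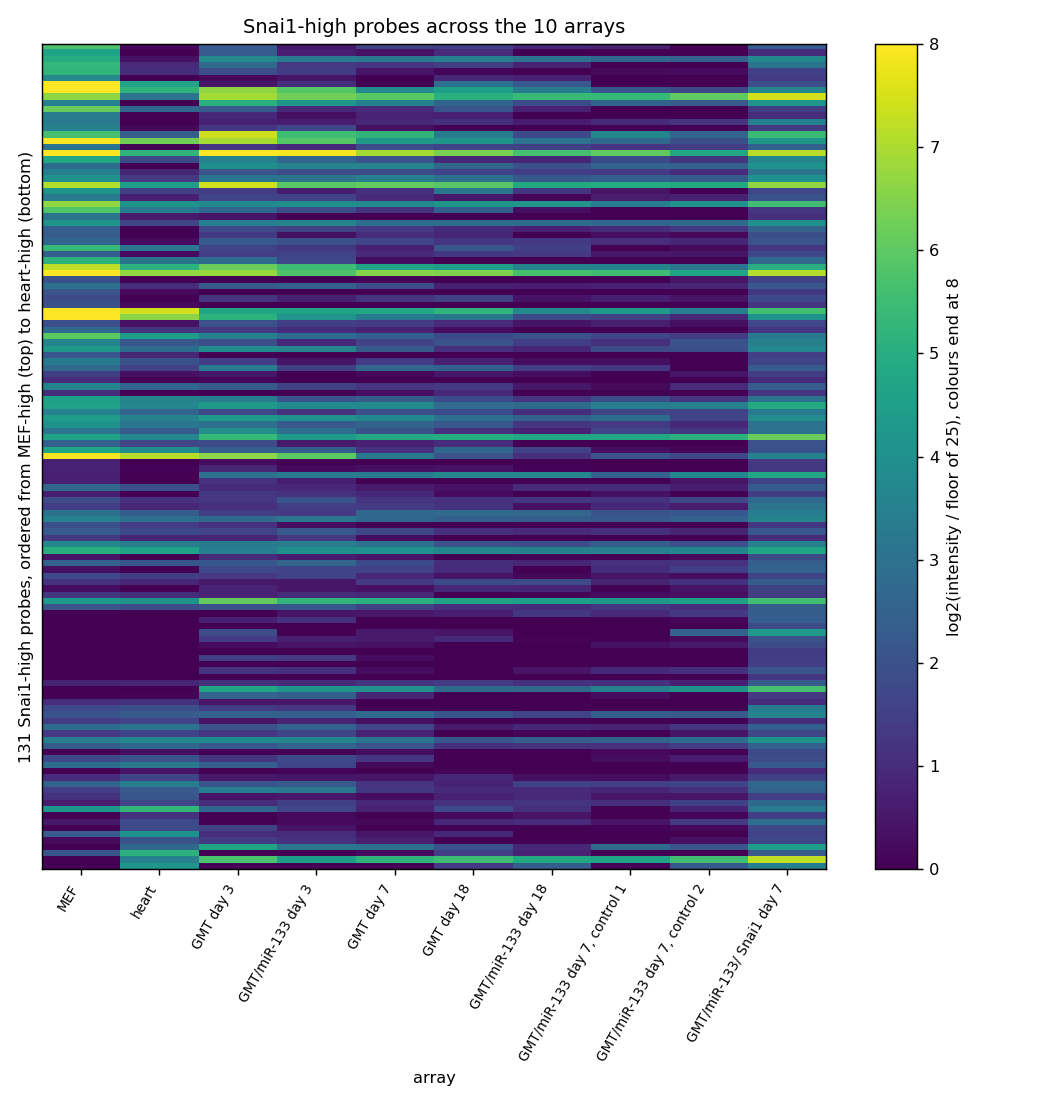
The 131 Snai1-high probes (rows, from the most MEF-high at the top to the most heart-high at the bottom) on the 10 arrays (columns), coloured by log2 of intensity over the floor of 25, with the colours ending at 8. Over the 54 MEF-high rows at the top the median falls from 369.8 in MEF to 43.1 and 38.5 on the controls, though single rows are brighter elsewhere, such as M200013648 with GMT at day 3. A block of 11 rows is at the floor in both MEF and heart and has signal on the Snai1 array.

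GMT at day 7 offers a view without miR-133 of the same day by title, on an array the rule did not use. Its column matches the scanner file deposited for day 3, as that of control 1 does. The array was scanned in the session of control 1, apart from control 2 and the Snai1 array. GMT at day 7 stood above both controls for 87 members (66.4%), compared with 17% of all probes and 32.1% of those at 50 or more on the Snai1 array. It stood below both for 11 (8.4%), compared with 10.6% and 25.2%. It was at least 2-fold above control 2 for 25 members (19.1%), compared with 1.77% of all probes, while the members were chosen to be low on the controls, so nothing is read from these shares. The Snai1 array was at least 2-fold above it for 73 members (55.7%), compared with 0.92% of all probes, and within 2-fold for 58. The members were chosen to be high on the Snai1 array, so this share is a description and nothing is read from it.

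Days 3 and 18 allow GMT/miR-133 to be set against GMT on arrays that the rule did not use. The choice is not independent of this comparison, since members were chosen to be low with GMT/miR-133 at day 7. That favours lower values with miR-133 at other days, so the shares here and in the next paragraphs only describe the set. Probes above the floor on at least 2 of the 4 arrays were tested with limma with day as a term, 11019 in all, and the 2 days stand in for replicates. Of the members, 119 entered this test and 12 did not. Members were lower with miR-133 at both days in 64 cases (53.8%), compared with 29.4% of all probes tested, and higher at both in 12 (10.1%), compared with 22.4%. Their median log2 difference was −0.24 (day 3) and −0.18 (day 18), compared with −0.019 and −0.0042 for all probes tested. At least 2-fold at both days, 7 members (5.88%) were lower and 0 were higher, compared with 0.172% and 0% of all probes tested.

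None of the 11019 probes tested passed. After adjustment limma called 0 of the 119 members at 0.05, and the lowest adjusted value was 0.0824. Without adjustment 50 members lay under 0.05 (42.0%), compared with 8.4% of all probes tested. The 46 lower ones of these make 38.7%, compared with 5.73% of all probes tested, and the 4 higher ones 3.36%, compared with 2.68%. With a lower floor in place of 25, limma called 9 members lower (7.56%), compared with 0.245% of all probes tested. With scanner intensities under their deposited days it called 17 (14.3%), compared with 0.481%. The latter places control 1, an array of the rule, in the day 3 pair.

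The 7 members that were 2-fold lower at both days were named after their values were seen. M200013648 was at 4219 with GMT and 1177 with GMT/miR-133 at day 3, and at 259 and 85.8 at day 18. It was at 942 with GMT at day 7, 316 and 153 on the controls and 1089 with Snai1, above GMT at day 7 and near the 1250.3 of MEF. Its difference was −1.72 ± 0.15 (log2, SE; limma, adjusted p = 0.0824). M300001793 was at 4302 and 1558 at day 3 and at 1521 and 732 at day 18, without and with miR-133. Its controls were at 766 and 719 and the Snai1 array at 2531, above the 1679 of GMT at day 7. M200001767 was at 3104 and 1486 at day 3 and at 446 and 206 at day 18, and with Snai1 at 475, about the 504 of GMT at day 7 and 36.7-fold below MEF. M200005324, M200006455, M300009878 and M200001161 made up the rest, with log2 differences of −1.34, −1.38, −1.15 and −1.30 (limma, adjusted p = 0.0824 to 0.126).

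**Figure D5:**
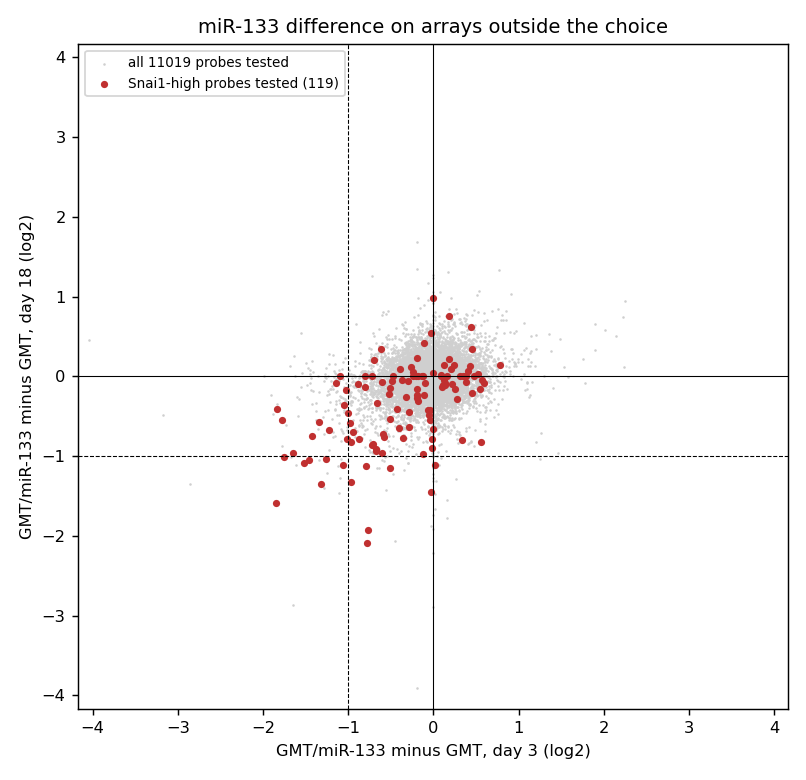
Difference of GMT/miR-133 from GMT at day 3 (horizontal) and day 18 (vertical), log2, for 11019 probes tested (grey) and the 119 Snai1-high probes among them (red). Dashed lines mark 2-fold lower with miR-133. In the lower left, where both days are lower, lie 64 members, 7 of them beyond both dashed lines.

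Of 48 tested MEF-high members, 37 were lower with miR-133 at both days and 1 was higher at both, with a median difference of −0.53. Of all 1899 tested probes that were MEF-high, members included, 49.3% were lower and 13.4% higher at both days, with a median of −0.14, so lower levels with miR-133 were common among MEF-high probes in general. Of 53 tested members with like levels in MEF and heart, 20 were lower and 7 higher at both days, with a median of −0.097. Of 11 heart-high members 5 were lower and 3 higher, and of 7 tested members at the floor in MEF and heart 2 were lower and 1 higher. Over all probes tested 29.4% were lower and 22.4% higher at both days. No nearer background is given for the groups that were not MEF-high. These groups were formed after the values were seen and were not tested against each other.

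The comparison of day 18 with day 3 used the same 4 arrays, with both arms standing in for replicates. Day cannot be told apart from scan session here, since the day 3 pair was scanned apart from the day 18 pair. Control 1, on which members were chosen to be low, was scanned in the session of the day 18 pair. The choice may thus itself favour lower values at day 18. Of the 119 members limma called 70 lower at day 18 (58.8%), compared with 20.4% of all probes tested, and 10 higher (8.4%), compared with 10.2%. The median difference was −0.79 with GMT and −0.78 with GMT/miR-133, compared with −0.13 and −0.12 for all probes tested. Calls on day depend on which deposit gives the right days. With scanner files under their deposited days, limma called 15 members lower (12.6%), compared with 3.23% of all probes tested, and 15 higher (12.6%), compared with 4.31%, with a median of −0.016. With a floor of 50, or with no filter on dim probes, it called 0 members. In those settings 18.1% and 51% of all probes fitted had no residual spread. The share of all probes called there is not given, so these 0 counts say nothing particular about the members.

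The largest fall, with days as in the value table, was at M300000003, −4.74 ± 0.15 (log2, SE; limma, adjusted p = 2.99e-05). It was at 5918 in MEF and 3505 in heart, at 2427 with GMT at day 3, 228 at day 7 and 102 at day 18, and at 1598 and 52.8 with GMT/miR-133 at days 3 and 18. With Snai1 it was at 286, nearest to GMT at day 7. M200013648 fell by 3.90 (adjusted p = 4.1e-05), M200001767 by 2.83, M300002656 by 2.80 and M300011568 by 2.53. With deposited days these values were −0.72 for M300000003, −1.57 for M200013648, 0.14 for M200001767, −0.67 for M300002656 and −0.51 for M300011568, so neither sizes nor order held. In that setting the Snai1 array lay below control 1 for M300000003 (−2.19) and M200001767 (−1.39). It was 0.07, 0.22 and 0.28 above control 1 for M200013648, M300002656 and M300011568. The largest rises were at M200007693, 1.85 ± 0.23 (adjusted p = 0.00287), and M200001169, 1.84 ± 0.30 (adjusted p = 0.00609). M200001169 was at 8705 in MEF, 35.1 and 51.9 at day 3, and 203 and 115 at day 18, so it stayed far below MEF at both days. M300017353, M400004695 and M200006283 rose by 1.31, 1.30 and 1.14. With deposited days their differences were 0.58, 0.31 and 0.61, and M400004695 was not called (limma, adjusted p = 0.159), while M200007693 and M200001169 were at 1.38 and 2.04. With a floor of 50 none of these 10 was called (limma, adjusted p = 0.098 to 0.608).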

How the data were processed

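RNA of 10 mouse samples was measured on 1-colour Toray chips, 1 array per sample, with dye-coupled amplified RNA per the labels' protocols. The deposited scanner files give a median intensity per spot for 27456 spots. Their fields for background subtraction and normalization are empty, per the file headers. The deposited value table holds intensities scaled by the authors to a median near 25 on each array, with dim probes left empty. The software and steps behind it are not stated in the labels or headers. Its 23473 probes were used with a floor of 25, on the log2 scale.

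Arrays were grouped by title. Tests were made with limma 3.58.1 under R 4.3.3, with Benjamini-Hochberg adjustment over all 11019 probes tested and 1 residual degree of freedom before moderation. On simulated data this test called more unchanged probes than its nominal rate. There 27 unchanged probes were called, beside 8, 47, 50 and 50 of 50 probes changed 1.5, 2, 3 and 4-fold. The simulation covered GMT/miR-133 against GMT and set no floor, and the day comparison was not simulated. Nothing in the labels names separate cultures. With 1 array for each arm and day, the residual spread is how far the arm difference varies between the days. It is moderated over all probes tested, so standard errors and p-values do not measure a spread between like samples. As an alternative, scanner intensities were corrected with normexp fitted to 2736 blank spots (offset 50) and quantile-normalized. Value columns were matched to scanner files by correlation. The number of arrays limits the precision.

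Probes named were the 10 with the largest smaller fold, the 5 most MEF-high and heart-high, up to 5 called in each direction, those beside the threshold and the 3 most like the leader. Further probes named for their values are given as such. The members, lists and tests were chosen with earlier results of these data known. Marker and gene lists could not be used, because the files used here do not pair probes with genes.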

Additional observations from a re-analysis of the deposited data

How the results depend on the processing

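Which probes are members depends on the controls and on the scale. The count of 131 members became 354 at 1.5-fold and 30 at 3-fold, 77 with a floor of 50, 61 with scanner intensities under their deposited days, and 77 when only probes at 100 or more on the Snai1 array were taken, a choice made after seeing the data. Leaving out 1 control array gave 209 to 328. With a lower floor, quantile normalization or scanner intensities matched to the value columns the count was within 1.5 times of the count given. The count of heart-high members was 7 with a floor of 50, and the counts of MEF-high members and of members below or above MEF on 5 iCM arrays stayed within 1.5 times under both other floors, both scanner settings and quantile normalization. The latter counts did so too when each iCM array was left out in turn. For GMT/miR-133 against GMT, limma called 1 member lower (1 probe of all tested, 0.00908%) with all 6 first-round arrays, which include control 1, where the rule chose members to be low, 9 with a lower floor and 17 with scanner intensities under their deposited days. The median of −0.25 was −0.30 with those 6 arrays, −0.12 with a floor of 50, −0.18 with matched scanner intensities, and −0.24 to −0.18 at single days, which have no test. For day 18 against day 3, the 70 lower and 10 higher calls became 0 and 0 with no filter, where 51% of probes had no residual spread, and 0 and 0 with a floor of 50, where 18.1% had none. There were 15 lower calls with deposited days, and 6 higher ones without the arm as a term. The median of −0.78 was −0.67 with no filter, −0.90 and −0.41 with a lower floor and one of 50, −0.48 with matched scanner intensities, −0.016 with deposited days, −0.69 with quantile normalization, and −0.79 to −0.78 in single arms. M200001767 turned from −2.83 to 0.14 with deposited days. Unless stated above, the cause was not tested. Arrays were paired by day or by arm in these fits. Without the day pairing the miR-133 calls were 0 as before, and without the arm pairing the day calls were 50 lower and 6 higher. The share of all probes called is not given without the arm pairing, with no filter or with a floor of 50. The day calls in these settings thus have no background.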
